A study of Mus musculus with 21 samples.

Results

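Interleukin 6 signaling, its transcription factor STAT3 and the SOCS proteins that switch it off were followed in inflammatory monocytes (IMs) through 10 genes: Il6, Osm, Il6ra, Il6st, Stat3, Socs1, Socs2, Socs3, Cish and Pim1. The members were chosen by name as a pathway list, with earlier results of these data known, and all 10 were among the 23420 gene symbols of the count table. RNA was sequenced from 21 libraries of sorted IMs. Tumor-infiltrating IMs (TIMs) came from primary lung tumors and from lymph node metastases of FVB mice injected in the lung with 500000 KAL-LN2-E1 (LN2E1) cells (n = 5 each), and from lungs of DBA2 mice injected intravenously with 300000 LN4K1 cells (n = 5). Both lines are mouse lung squamous cell carcinoma lines, LN2E1 derived from the KAL line and LN4K1 from KLN-205. The comparison cells were IMs from the bone marrow (BM) of healthy, tumor-free FVB mice (n = 3) and DBA2 mice (n = 3). The labels give no age and do not say that replicates came from separate animals, and the study's methods speak of technical replicates, so each n counts libraries and the p-values measure the spread between these samples, which may be technical.

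IL-6 binds the receptor chain IL-6Rα (Il6ra) and then gp130 (Il6st), the signaling chain that receptors for oncostatin M, LIF and IL-27 also use. gp130 activates JAK kinases, which phosphorylate STAT3, and STAT3 enters the nucleus and turns on its targets, among them Socs3. SOCS3 and its relatives SOCS1, SOCS2 and CISH then bind receptors or JAKs and end the signal, and the kinase PIM1 is induced by STAT3 and STAT5 as well. In monocytes and macrophages this loop limits inflammatory responses, and several other cytokines drive the same feedback genes.

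Each TIM group was compared with BM IMs of the same strain, and Socs3 had the largest estimated change of the members each time. It was 465-fold higher in LN2E1 primary tumor TIMs, 283-fold higher in lymph node TIMs and 253-fold higher in LN4K1 lung TIMs. Cish was 35.7-fold, 26.1-fold and 27.2-fold higher, and Socs1 20.7-fold, 41.6-fold and 7.77-fold higher, in the same order. Il6 itself was 5.25-fold, 3.90-fold and 28.0-fold higher, from at most 1.84 CPM (read counts scaled to library size) in any BM library. Neither receptor chain passed the test in lymph node or LN4K1 lung TIMs, and no member fell in any of these comparisons.

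All libraries held between 80772922 and 101043568 counts, and all 10 members passed the filter on low counts in each comparison. Of 8 sort and monocyte markers 5 were measured, and Ptprc (CD45), Itgam (CD11b), Ly6c1, Ly6c2 and Ccr2 summed to between 4454 and 7081 CPM, while Ly6g and Siglecf, which the sort gated out, and Adgre1 were not analysed here. Within that sum, at an adjusted p under 0.05, 3 rose and 2 fell in primary tumors against BM. In lymph nodes and in LN4K1 lungs 2 rose and 2 fell. The mean of Ly6c2 was 3023 CPM in FVB BM, 1245 in primary tumor and 1337 in lymph node TIMs. That of Ptprc was 636, 1921 and 2350 CPM. In DBA2 BM and LN4K1 lung TIMs the means were 2583 and 1483 CPM for Ly6c2 and 714 and 1510 CPM for Ptprc. A set of 18 early response and dissociation genes summed to between 11475 and 17276 CPM in FVB BM, 23228 and 27499.9 in primary tumor, 12676 and 17891 in lymph node, 17895 and 32542 in DBA2 BM and 29376 and 45370.2 in LN4K1 lung libraries. The 7 fibroblast markers summed to at most 0.359 CPM in BM IMs but to between 369 and 1115 CPM in primary tumor TIMs, 2.30 and 87.4 in lymph node TIMs and 1.33 and 43.2 in LN4K1 lung TIMs. Dendritic cell markers (6 genes) summed to between 9.90 and 20.0 CPM in BM and 40.7 and 562 CPM in TIMs, and endothelial markers (5 genes) to between 6.03 and 13.7 CPM in BM, 59.1 and 128 CPM in LN2E1 TIMs and 6.29 and 18.9 CPM in LN4K1 TIMs. Pecam1 was the most abundant endothelial marker in every group, with means of 49.0 CPM in primary tumor and 75.4 CPM in lymph node TIMs. Markers of eosinophils, basophils and mast cells (9 genes) went the other way, from between 441 and 1229 CPM in BM to between 3.68 and 223 CPM in TIMs, and neutrophil markers (8 genes) ranged from 1012 to 3203 CPM in BM and from 437 to 1625 CPM in TIMs. Csf3r was the most abundant neutrophil marker in each TIM group, with means of 566 CPM in primary tumor, 426 in lymph node and 465 in LN4K1 lung TIMs. It is also on the list of receptors that signal through JAKs. The part of cells with these markers in the results was not tested. LN4K1 lung replicate 3 stood apart from the other 4 libraries of its group. It was the lowest of the 5 for 7 members (Socs2, Socs3, Cish, Pim1, Stat3, Il6st and Osm) and the highest for Il6, and calls that turn on it are given with and without it. The methods describe collagenase digestion of lung tissue, so tissue of origin, digestion and tumor cannot be told apart in a comparison with BM. In such bulk samples fewer cells of a type and less RNA per cell cannot be told apart either.

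A gene was called changed at a Benjamini-Hochberg adjusted p under 0.05 in edgeR's quasi-likelihood test over all genes tested, and a differentially expressed gene (DEG) at an adjusted p under 0.0001 with an absolute log2 fold change above 1. In primary tumor TIMs all 10 members rose, against a background of 61.9% of 14569 genes changed, 33.3% higher and 28.6% lower. In lymph node TIMs 6 of 10 rose, against 37.4% of 13273 genes changed, 20.2% higher and 17.2% lower. In LN4K1 lung TIMs 6 of 10 rose, against 24.9% of 13624 genes changed, 13.9% higher and 11% lower. Every TIM library exceeded every BM library for 10 members in primary tumors (30.7% of all genes), 6 in lymph nodes (20.1%) and 7 in LN4K1 lungs (19.9%). By the DEG rule the counts were 5 members in primary tumors (12.9% of all genes), 4 in lymph nodes (5.71%) and 1, Socs1, in LN4K1 lungs (2.97%). These counts were not stable: with a library left out they were 2 in lymph nodes in every fit but that without lymph node replicate 1, and 4 in LN4K1 lungs without LN4K1 lung replicate 3, and DESeq2 gave 8 in primary tumors and 6 in LN4K1 lungs. In the fit of all 5 groups Socs2 (adjusted p = 0.0674) and Il6ra (adjusted p = 0.0527) were not called in primary tumors. The median log2 fold change of the members was 2.16, 1.99 and 2.40, and that of all genes tested 0.08, -0.04 and 0.03. The primary tumor and lymph node comparisons used the same FVB BM libraries and are therefore not independent.

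**Figure D1:**
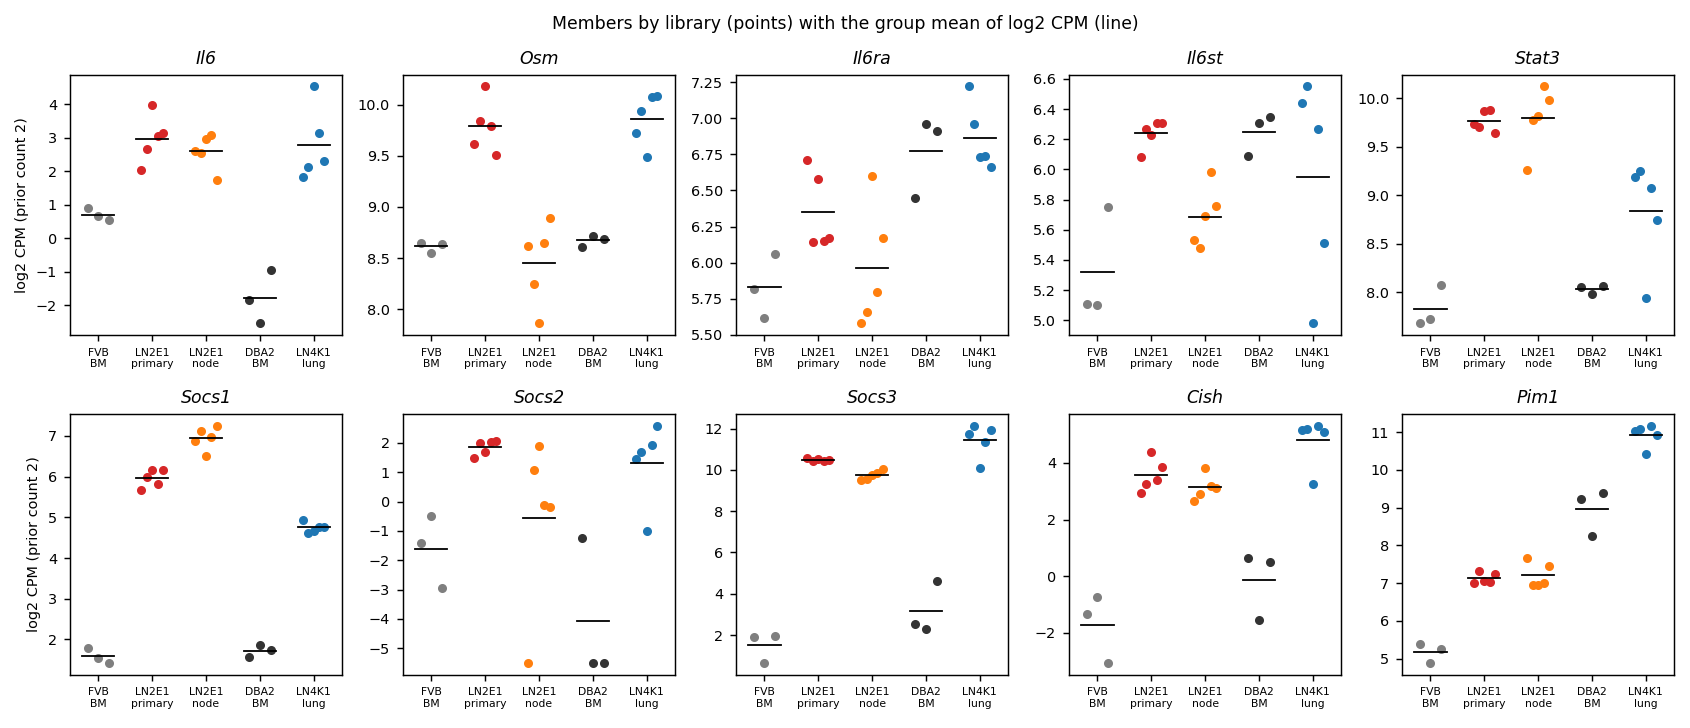
Level of each of the 10 members in each library as log2 CPM with a prior count of 2 (vertical axis, scaled separately in each panel) by group (horizontal axis). Points are libraries and lines are group means. Socs1, Socs3, Cish, Pim1 and Il6 lay higher in every TIM library than in every BM library of the same strain.

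**Figure D2:**
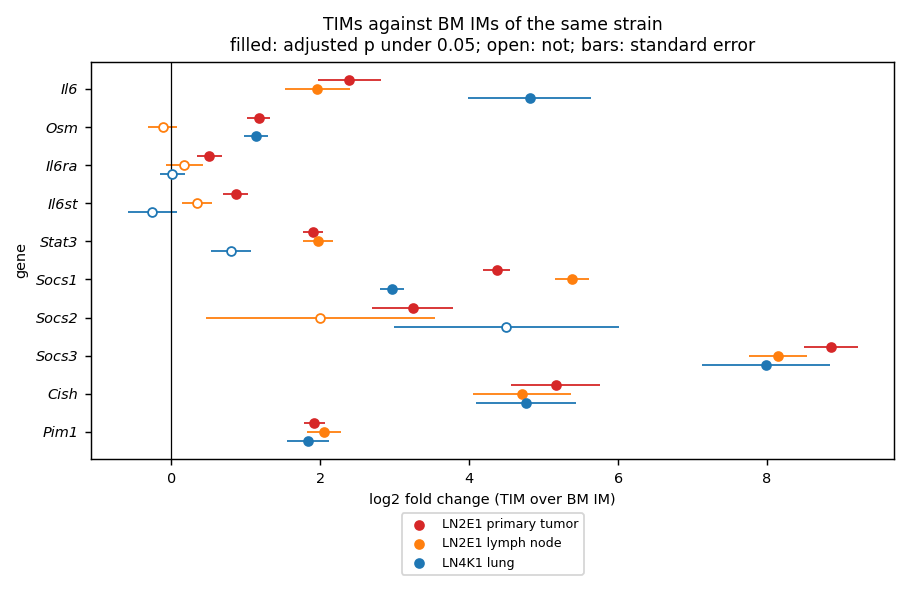
Log2 fold change of TIMs over BM IMs of the same strain (horizontal axis) for the 10 members (vertical axis) in the 3 tumor sites. Points are edgeR estimates and bars their standard errors, and filled points passed an adjusted p of 0.05. Socs3 had the largest estimate in each site, and open points mark Osm in lymph nodes, Il6ra and Il6st outside primary tumors, Stat3 in LN4K1 lungs and Socs2 outside primary tumors.

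Among the ligands, Il6 (chr5:30013114-30019981 on the plus strand of GRCm38, protein coding) was a low transcript throughout. The FVB BM libraries held 1.84, 1.57 and 1.44 CPM of Il6. The primary tumor TIM libraries held 4.06, 6.30, 15.6, 8.23 and 8.73 CPM, and the lymph node TIM libraries 6.01, 5.83, 7.83, 8.49 and 3.33 CPM. No TIM library of the LN2E1 model overlapped the FVB BM libraries. Il6 rose by a log2 fold change of 2.39 (SE 0.42, adjusted p = 0.000819) in primary tumors and 1.96 (SE 0.44, adjusted p = 0.00635) in lymph nodes. In DBA2 BM the libraries held 0.257, 0.150 and 0.496 CPM, and in LN4K1 lung TIMs 3.54, 4.33, 23.1, 8.87 and 4.90 CPM. The 23.1 CPM belonged to replicate 3, but the other 4 libraries also exceeded every BM library. The log2 fold change was 4.81 (SE 0.83, adjusted p = 0.00254), and leaving out each library in turn gave values between 4.09 and 5.37, all called. Fibroblasts are a known source of IL-6, and their marker sum was higher in each TIM group than in BM, as given above. Within groups the libraries did not rank alike by Il6 and by this sum. Primary tumor replicate 3 had the highest Il6 and the lowest sum (369 CPM) of its group. In LN4K1 lungs the sum was 2.03 CPM in replicate 3 and highest, at 43.2 CPM, in replicate 5. The part of fibroblasts in the Il6 values was not tested.

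The Il6 promoter is shown because it holds the NF-kB type motif known to drive the gene, searched as GGGNN followed directly by TTTCC. In the 300 bases around its RefSeq start (250 before and 50 after, build GRCm38.p6), this motif, searched on both strands, matched once, its first base 44 bases before the start, and 1.63% of 32851 promoters of the same length held it. The 150 bases up to the start, chr5:30012964-30013113 on the plus strand, read as follows, with the match in capitals.
Il6: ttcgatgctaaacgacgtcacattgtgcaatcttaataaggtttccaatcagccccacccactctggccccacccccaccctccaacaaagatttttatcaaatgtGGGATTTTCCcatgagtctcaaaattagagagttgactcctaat
The STAT type motif TTCNNNGAA had no match in this window of Il6.

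Osm, which encodes oncostatin M, a gp130 cytokine made by myeloid cells, followed another course. FVB BM libraries held 403, 375 and 400.0 CPM and primary tumor TIM libraries 788, 917, 1163, 887 and 732 CPM. Lymph node TIM libraries held 394, 304, 232, 403 and 474 CPM, which overlapped the BM range. Osm rose in primary tumors by a log2 fold change of 1.17 (SE 0.15, adjusted p = 0.000127), whereas its change in lymph nodes was -0.12 (SE 0.20, adjusted p = 0.683), with a range of 2 SE from -0.53 to 0.28. DBA2 BM libraries held 391, 422 and 412 CPM and LN4K1 lung TIM libraries 843, 985, 717, 1079 and 1093 CPM, again without overlap. The rise there was 1.13 (SE 0.16, adjusted p = 0.000686). Among the TIM groups, those in which Osm rose also had the higher early response gene sums. In BM, DBA2 replicate 3 had a sum of 32542 CPM, above any primary tumor library, and held 412 CPM of Osm. The part of early response genes in the result was not tested. Scaled by exon length (RPKM), Osm was the most abundant member in both BM groups, at 173 ± 6.68 (SD, n = 3) in FVB and 180 ± 6.94 (SD, n = 3) in DBA2.

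The receptor chains changed little. Il6ra, the IL-6 binding chain, lay between 49.1 and 66.5 CPM in FVB BM, 70.3 and 104 CPM in primary tumor TIMs and 48.0 and 97.3 CPM in lymph node TIMs. It rose in primary tumors by 0.51 on the log2 scale (SE 0.17, adjusted p = 0.0277), a call that was lost in 4 of 8 fits with 1 library left out (FVB BM replicate 1 or 2, primary tumor replicate 1 or 3), with adjusted p up to 0.0845. Il6ra lay between 87.6 and 124 CPM in DBA2 BM and 101 and 149 CPM in LN4K1 lung TIMs. The ranges overlapped, and the change of 0.01 (SE 0.17, adjusted p = 0.973) had a 2 SE range from -0.34 to 0.36. Its exons overlap those of Gm42809 on the opposite strand, and since the libraries were not strand-specific, reads of the pair cannot be told apart.

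Il6st, the shared gp130 chain, lay between 34.2 and 53.9 CPM in FVB BM, 67.8 and 79.5 CPM in primary tumor TIMs and 44.5 and 62.9 CPM in lymph node TIMs. All primary tumor libraries exceeded the BM libraries, and the log2 fold change was 0.86 (SE 0.17, adjusted p = 0.00142). In lymph nodes the change was 0.34 (SE 0.20, adjusted p = 0.221), and it was called in 1 of 8 fits with a library left out, that without FVB BM replicate 3, at an adjusted p of 0.0321. DBA2 BM held 68.1, 79.2 and 81.7 CPM and LN4K1 lung TIMs 86.9, 93.9, 31.5, 77.4 and 45.4 CPM, a spread that covered the BM values. The change was -0.26 (SE 0.33, adjusted p = 0.623). Il6st is widely expressed outside the blood, and its higher level in primary tumor TIMs coincided with the highest fibroblast and epithelial marker sums, the latter between 157 and 742 CPM against at most 1.92 CPM in BM. Their part in the result was not tested.

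Stat3, the transcription factor downstream of gp130, was already among the more abundant members in BM. FVB BM libraries held 205, 213 and 270 CPM. Primary tumor TIM libraries held 847, 831, 939, 945 and 798 CPM and lymph node TIM libraries 611, 872, 902, 1114 and 1009.6 CPM, all above BM. Stat3 rose by 1.90 (SE 0.13, adjusted p = 2.16e-06) and 1.97 (SE 0.20, adjusted p = 5.55e-05) on the log2 scale, 3.74-fold and 3.93-fold. DBA2 BM libraries held 266, 252 and 267 CPM and LN4K1 lung TIM libraries 583, 609, 245, 537 and 428 CPM, of which replicate 3 alone lay below BM. With all 5 libraries the log2 fold change of 0.80 (SE 0.27) was not called, at an adjusted p of 0.0568, and without replicate 3 it was 0.97 and called, at an adjusted p of 0.000347. Exons of Stat3 overlap those of the neighbouring Stat5a on the opposite strand.

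Socs3, the main feedback inhibitor of gp130 and a direct STAT3 target, went from near absence to the top of the list. The FVB BM libraries held 3.69, 1.56 and 3.87 CPM. Primary tumor TIM libraries held 1511, 1399, 1486, 1369.6 and 1435 CPM and lymph node TIM libraries 736, 744, 870.0, 929 and 1043 CPM. The lowest LN2E1 TIM library thus exceeded the highest FVB BM library by a wide margin, and the 5 primary tumor libraries lay close together. The log2 fold change was 8.86 (SE 0.36, adjusted p = 1.67e-07) in primary tumors and 8.15 (SE 0.39, adjusted p = 5.3e-07) in lymph nodes. DBA2 BM libraries held 5.75, 4.87 and 24.3 CPM and LN4K1 lung TIM libraries 3394, 4526, 1079, 2630.4 and 3885 CPM. Replicate 3 was the lowest of the TIM libraries and still far above the DBA2 BM libraries, and the change was 7.98 (SE 0.86, adjusted p = 0.00015). Leaving out each library in turn gave between 7.61 and 9.12, all called. By RPKM Socs3 was the most abundant member in each TIM group, at 498 ± 20.3 (SD, n = 5) in primary tumors, 299 ± 44.9 (SD, n = 5) in lymph nodes and 1073 ± 459 (SD, n = 5) in LN4K1 lungs, although its range overlapped that of Osm in primary tumors and that of Pim1 in LN4K1 lungs.

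Within groups, Socs3 and the early response genes stood out in the same libraries of the DBA2 strain. DBA2 BM replicate 3 had the highest Socs3 of the BM libraries (24.3 CPM) and the highest early response sum among them (32542 CPM, against 17895 and 19674 in the other two). LN4K1 lung replicate 3 had the lowest Socs3 (1079 CPM) and the lowest early response sum (29376 CPM) of its group. Of the 18 early response genes 14 rose and 1 fell in primary tumors, 10 rose and 2 fell in lymph nodes, and 9 rose in LN4K1 lungs. Over all genes tested 33.3%, 20.2% and 13.9% rose and 28.6%, 17.2% and 11% fell, in the same order. Ier3 was at most 48.2 CPM in FVB BM and at least 180 CPM in lymph node TIMs, and at most 16.5 CPM in DBA2 BM and at least 431 CPM in LN4K1 lung TIMs. Egr2 and Nr4a1 also lay higher in every TIM library than in every BM library of the same strain. The sum over the list overlapped between lymph node TIMs and FVB BM IMs, with Fos, its most abundant gene in FVB BM, lower in lymph nodes by a log2 fold change of -1.66 (SE 0.16). DBA2 BM replicate 3 had a higher sum than any primary tumor library (at most 27499.9 CPM). It held 24.3 CPM of Socs3, against at least 1369.6 CPM in primary tumor libraries. The part of early response and dissociation in the Socs3 result was not tested.

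**Figure D3:**
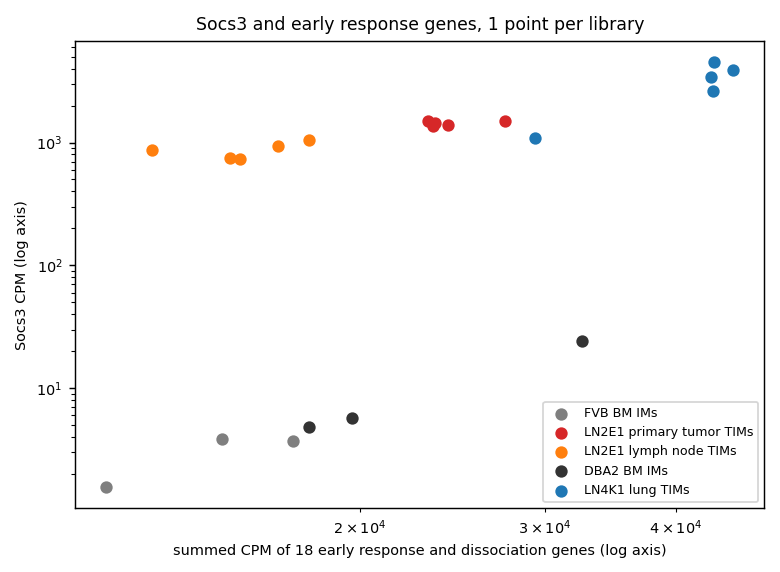
Socs3 CPM (vertical log axis) against the summed CPM of 18 early response and dissociation genes (horizontal log axis), 1 point per library. All 15 TIM libraries lie at 736 CPM of Socs3 or above and all 6 BM libraries at 24.3 CPM or below, and the horizontal ranges of the TIM and BM libraries overlap.

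The promoters of Socs3 and Cish are shown because they hold the palindromic STAT type motif TTCNNNGAA, found in 8.30% of 32851 RefSeq promoters of 300 bases (GRCm38.p6, both strands) and at least 2 times in 0.457%. Of the 10 members, 8 had an entry, and Socs2 and Osm did not. Socs3 had 1 match, which began 154 bases before the start, in the stretch chr11:117969467-117969616 on the minus strand. Cish had 2 matches, which began at bases 1 and 12 counted from the start, in chr9:107296659-107296678 on the plus strand. Matches are in capitals.
Socs3: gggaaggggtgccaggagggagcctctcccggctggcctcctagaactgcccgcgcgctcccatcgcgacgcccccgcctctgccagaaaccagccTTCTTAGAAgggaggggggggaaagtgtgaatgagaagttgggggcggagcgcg
Cish: TTCCTGGAAagTTCTTGGAA
No match of TTCNNNGAA was present in these windows of Socs1, Pim1, Stat3, Il6ra or Il6st, and the NF-kB type motif matched in none of the 8 but Il6. A match is a description of letters and not evidence of binding.

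Cish, a SOCS family member best known for feedback on STAT5-activating receptors, was nearly silent in BM. FVB BM libraries held 0.375, 0.581 and 0.0983 CPM. Primary tumor TIM libraries held 7.52, 9.60, 20.6, 10.5 and 14.6 CPM and lymph node TIM libraries 6.31, 7.49, 14, 9.18 and 8.68 CPM. There was no overlap, with log2 fold changes of 5.16 (SE 0.60, adjusted p = 7.08e-05) and 4.71 (SE 0.66, adjusted p = 0.000389). DBA2 BM libraries held 1.56, 0.319 and 1.38 CPM and LN4K1 lung TIM libraries 35.6, 36.9, 9.64, 39.6 and 34.2 CPM. Replicate 3 was again low but above BM, and the change was 4.76 (SE 0.67, adjusted p = 0.000749). Cish is also expressed by T cells and natural killer (NK) cells, whose markers rose in part of these comparisons. The 5 T cell markers summed to between 3.42 and 54.7 CPM in TIMs and to at most 2.51 CPM in BM, and the part of these cells was not tested. Exons of Cish overlap those of Gm17040 and Gm17041 on the opposite strand.

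Socs2, a feedback inhibitor of growth hormone and STAT5 signaling, was the least abundant member by RPKM in every group. FVB BM libraries held 0.352, 0.683 and 0.107 CPM and primary tumor TIM libraries 2.78, 3.95, 3.22, 4.02 and 4.17 CPM, a rise of 3.24 on the log2 scale (SE 0.54, adjusted p = 0.000651) that was not called in the fit of all 5 groups (3.25, adjusted p = 0.0674). Lymph node TIM libraries held 0, 2.08, 3.73, 0.911 and 0.855 CPM, which overlapped BM, and the change of 2.0 (SE 1.54, adjusted p = 0.351) was not called. The count of 0 in lymph node replicate 1 allows up to 0.0363 CPM. DBA2 BM libraries held 0.401, 0 and 0 CPM, where the counts of 0 allow up to 0.0299 and 0.0317 CPM, and LN4K1 lung TIM libraries held 2.73, 3.18, 0.473, 3.75 and 5.98 CPM. No lung library overlapped BM, yet the change of 4.50 (SE 1.51) had an adjusted p of 0.0567. It was called without LN4K1 lung replicate 3, at 4.78 with an adjusted p of 0.0143, and without DBA2 BM replicate 1, where the remaining BM libraries had 0 counts. The gene with the profile nearest to Socs2 over the 21 libraries was Ctsw, a protease of cytotoxic lymphocytes, followed by Cabp4 and by the T cell kinase gene Lck. The 5 NK markers were at 0 counts in all DBA2 BM libraries and summed to between 7.04 and 16.1 CPM in LN4K1 lung TIMs. In FVB BM they summed to between 0 and 8.95 CPM and in primary tumor TIMs to between 3.44 and 4.10 CPM. T cell markers summed to between 1.05 and 2.51 CPM in FVB BM and 8.67 and 27.4 CPM in primary tumor TIMs. The part of lymphocytes in the Socs2 values was not tested.

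Socs1, the feedback inhibitor best known for interferon signaling, rose to a different level at each tumor site. FVB BM libraries held 3.41, 2.90 and 2.68 CPM and DBA2 BM libraries 2.97, 3.62 and 3.29 CPM with overlapping ranges. Primary tumor TIM libraries held 51.0, 63.1, 72.2, 56.1 and 71.9 CPM, and lymph node TIM libraries 118, 138, 90.7, 126 and 152 CPM. LN4K1 lung TIM libraries held 30.7, 24.6, 25.3, 27.3 and 27.0 CPM. The 3 TIM groups did not overlap with BM or with each other. The log2 fold changes were 4.37 (SE 0.18, adjusted p = 1.59e-07) in primary tumors, 5.38 (SE 0.23, adjusted p = 3.03e-07) in lymph nodes and 2.96 (SE 0.16, adjusted p = 2.89e-06) in LN4K1 lungs. LN4K1 lung replicate 3 lay within its group here.

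Pim1, a survival kinase induced by STAT3 and STAT5, rose from BM levels that differed by strain. FVB BM libraries held 41.6, 29.6 and 37.9 CPM, primary tumor TIM libraries 127, 158, 132, 132 and 150 CPM and lymph node TIM libraries 203, 123, 123, 129 and 176 CPM. DBA2 BM libraries held 600.0, 307 and 672 CPM and LN4K1 lung TIM libraries 2078, 2183, 1373, 2311 and 1953 CPM. Every DBA2 BM library thus exceeded every LN2E1 TIM library. The log2 fold changes of TIMs over BM were 1.92 (SE 0.14, adjusted p = 3.03e-06), 2.05 (SE 0.23, adjusted p = 8.18e-05) and 1.83 (SE 0.28, adjusted p = 0.00124). Exons of Pim1 overlap those of Gm26885 on the opposite strand.

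To see whether the site mattered within the LN2E1 model, lymph node TIMs were compared with primary tumor TIMs, which may come from the same mice, since the labels do not say. Of the 10 members 4 changed, against 11.7% of 13488 genes (6.15% higher and 5.55% lower), and none was a DEG (0.0297% of genes). Socs1 was higher in lymph nodes by 1.0 on the log2 scale (SE 0.15, adjusted p = 0.00229). Socs3 was lower there, at -0.73 (SE 0.10, adjusted p = 0.00169). Osm was lower, at -1.30 (SE 0.19, adjusted p = 0.00211), and Il6st at -0.54 (SE 0.11, adjusted p = 0.00878). For these 4 genes the libraries of the sites did not overlap, against 5.61% of genes apart with lymph nodes higher and 8.84% with lymph nodes lower, and each call held in all 10 fits with a library left out. In the fit of all 5 groups Socs1 and Osm stayed called, whereas Socs3 (-0.74, adjusted p = 0.192) and Il6st (-0.55, adjusted p = 0.0963) did not. For Stat3 the difference was 0.06 with a 2 SE range from -0.22 to 0.34, and for Pim1 0.12 with a range from -0.18 to 0.42. Values of Il6, Il6ra, Cish and Socs2 overlapped between the sites. The 18 early response genes included 8 that fell and 1 that rose in lymph nodes, and 5 of 7 fibroblast markers fell.

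The healthy strains differed before any tumor. Of the 10 members 4 differed between DBA2 and FVB BM IMs, against 21.1% of 12905 genes (11.5% higher and 9.57% lower in DBA2), with no DEG among them (0.403%). Pim1 was 14.7-fold higher in DBA2, a log2 difference of 3.88 (SE 0.30, adjusted p = 0.000146), and the call held without each library in turn. Il6ra was higher by 0.97 (SE 0.17, adjusted p = 0.00727) and Il6st by 0.92 (SE 0.20, adjusted p = 0.0161), so both receptor chains were close to 2-fold higher in DBA2. Il6 was lower in DBA2 by 5.26-fold, a log2 difference of -2.40 (SE 0.60, adjusted p = 0.0269). The Il6 and Il6st calls were each made in 2 of 6 fits with a library left out, with adjusted p up to 0.092 and 0.0672. The Socs3 difference of 1.95 (SE 0.64, adjusted p = 0.0632) was not called although the libraries did not overlap. Socs1 differed by 0.16, with a 2 SE range from -0.36 to 0.68, and Osm by 0.08, with a range from -0.09 to 0.25.

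Whether TIMs departed from their BM by different amounts in LN2E1 primary tumors and LN4K1 lungs was tested as an interaction. It was called for 4 of 10 members, against 26.5% of 15182 genes (13.2% with the more positive change in LN2E1 and 13.3% with the more positive in LN4K1). Strain, cell line, injection route and tissue differ together between the models and cannot be told apart. Socs1 rose further in LN2E1 primary tumors, by 1.43 on the log2 scale (SE 0.20, adjusted p = 0.000267), and Stat3 by 1.12 (SE 0.31, adjusted p = 0.0159), and both calls held in all 16 fits with a library left out. Il6 rose less in LN2E1, at -2.40 (SE 0.83, adjusted p = 0.0444), but without LN4K1 lung replicate 3 the difference was -1.68 and not called, at an adjusted p of 0.0535. The Il6 levels in TIMs were 8.58 ± 4.32 (SD, n = 5) in primary tumors and 8.94 ± 8.15 CPM (SD, n = 5) in LN4K1 lungs, where the median was 4.90 CPM and the 4 libraries other than replicate 3 lay between 3.54 and 8.87 CPM. The BM levels were 1.62 ± 0.205 (SD, n = 3) in FVB and 0.301 ± 0.177 CPM (SD, n = 3) in DBA2. Il6st differed by 1.14 (SE 0.40, adjusted p = 0.0469), and the Il6 and Il6st calls were each made in 5 of 16 fits. For Pim1 the difference in change was 0.10 (SE 0.31, adjusted p = 0.86), with a 2 SE range from -0.51 to 0.72. For Socs3 it was 0.89, with a wider range from -0.48 to 2.27.

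**Figure D4:**
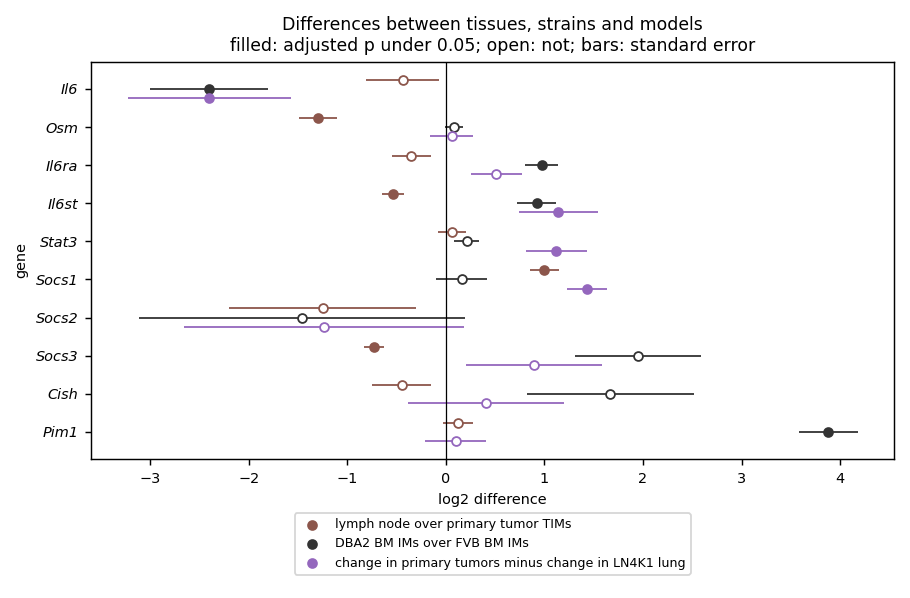
Log2 differences (horizontal axis) of the 10 members (vertical axis) between lymph node and primary tumor TIMs, between DBA2 and FVB BM IMs, and between the TIM against BM changes of LN2E1 primary tumors and LN4K1 lungs. Points are edgeR estimates and bars their standard errors, and filled points passed an adjusted p of 0.05. Pim1 differed between the BM groups by 3.88 and between the changes by 0.10.

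The rest of the pathway was described from lists that the members are not part of. The counts of each list stand against the shares of all genes tested. In primary tumors, lymph nodes and LN4K1 lungs 33.3%, 20.2% and 13.9% of genes rose and 28.6%, 17.2% and 11% fell. Of 14 further IL-6 family ligands and SOCS-inducing cytokines, 11 were tested in primary tumors, where 6 rose and 1 fell. Of 7 tested in lymph nodes 3 rose and 1 fell, and of 7 tested in LN4K1 lungs 2 rose. The cytokine genes Clcf1, a gp130 ligand, and Il27, the p28 chain of IL-27, passed in each comparison. Clcf1 had log2 fold changes of 2.78 (SE 0.36), 2.29 (SE 0.78) and 2.24 (SE 0.53) in primary tumors, lymph nodes and LN4K1 lungs, and Il27 of 1.72 (SE 0.27), 1.25 (SE 0.40) and 1.87 (SE 0.28). Both stayed low, with means of at most 2.40 CPM for Clcf1 and 22.5 CPM for Il27.

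Of 8 further receptor chains of the IL-6 family, 4 of 7 tested rose in primary tumors, 3 of 6 in lymph nodes and 2 of 6 in LN4K1 lungs, where 1 fell. Lifr, the LIF receptor chain that pairs with gp130, rose by 2.43 (SE 0.17), 2.81 (SE 0.22) and 2.40 (SE 0.15) on the log2 scale. Il12rb1, a chain of the IL-12 and IL-23 receptors, rose by 3.01 (SE 0.29), 3.02 (SE 0.49) and 2.76 (SE 0.44). Of 19 other receptors that signal through JAKs, 13, 12 and 8 rose and 4, 2 and 2 fell. Il21r rose by 4.71, 4.55 and 2.88, Il4ra by 3.97, 3.41 and 2.19 and Csf2rb2 by 3.23, 2.95 and 1.31, while the IL-3 receptor gene Il3ra changed by -0.85, -1.21 and -1.43.

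The JAK and STAT genes other than Stat3 differed between the models. All 10 rose in primary tumors and 9 in lymph nodes, but 3 in LN4K1 lungs, and the median log2 fold change was 1.29, 1.15 and 0.19. Between the models 8 of these 10 had a more positive change in LN2E1 primary tumors and none a more negative one. Over all genes tested these shares were 13.2% and 13.3%. The BM baselines differed as well. In healthy BM 6 of these 10 genes were higher in DBA2 than in FVB and none lower, with a median log2 difference of 0.74. Over all genes tested 11.5% were higher and 9.57% lower in DBA2. Strain, cell line, injection route and tissue cannot be told apart in this difference between the models. The kinase genes Jak3 (3.00, 2.88 and 1.04) and Jak2 (1.25, 1.42 and 1.06) passed in each comparison.

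Of 6 other SOCS genes and PIM kinases, 2 rose in primary tumors, 1 in lymph nodes and 1 in LN4K1 lungs, with median log2 fold changes of 0.28, 0.72 and -0.02. These counts lay near the shares of all genes tested that rose, 33.3%, 20.2% and 13.9%. Of 11 phosphatases, PIAS proteins and adaptors that restrain JAK-STAT signaling, 1, 2 and 3 rose and 3, 0 and 1 fell. Ptpn1, a phosphatase that acts on JAK2 and TYK2, rose by 1.32 (SE 0.11), 1.35 (SE 0.11) and 1.59 (SE 0.11). Of 5 genes concerned with shedding of the IL-6 receptor, 5, 3 and 2 rose, with the protease gene Adam17 at 1.51 (SE 0.11) in primary tumors, 1.67 (SE 0.14) in lymph nodes and 0.29 (SE 0.20, adjusted p = 0.349) in LN4K1 lungs.

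Of 27 genes described as STAT3 targets, 19 rose and 4 fell in primary tumors, 18 rose and 6 fell in lymph nodes, and 18 rose and 1 fell in LN4K1 lungs. The median log2 fold changes were 1.84, 1.77 and 1.36. Saa3, an acute phase protein, had changes of 9.39 (SE 0.77), 8.75 (SE 0.54) and 6.99 (SE 0.45), and the metalloproteinase inhibitor Timp1 of 9.0 (SE 0.65), 7.69 (SE 0.95) and 7.67 (SE 1.04). Timp1 is also a fibroblast product, and its mean of 64.3 CPM was highest in primary tumors, where the fibroblast marker sum was highest. The part of fibroblasts in the Timp1 values was not tested. Il1rn, the IL-1 receptor antagonist, rose by 5.51 (SE 0.18), 5.06 (SE 0.30) and 3.60 (SE 0.26). Birc5 changed by -5.22 (SE 0.37), -6.34 (SE 0.83) and -5.50 (SE 0.19), and its product, survivin, is best known as a cell division gene. Cebpb (-2.50 and -1.94), Cebpd (-0.71 and -1.56) and Lcn2 (-1.55 and -3.22) also fell in primary tumors and lymph nodes. In LN4K1 lungs Cebpd rose by 0.95, and Cebpb and Lcn2 were not called. The targets are shared with other transcription factors, and the list holds Junb and Fos, which belong to the early response genes as well, and Il4ra, which is also on the receptor list.

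**Figure D5:**
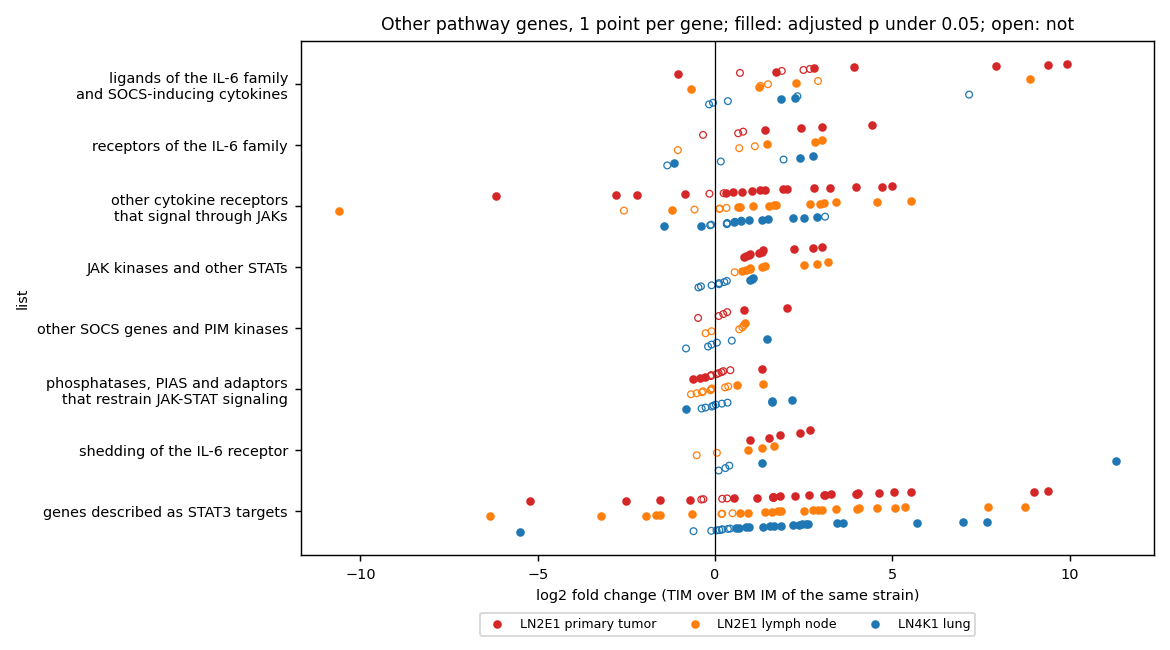
Log2 fold change of TIMs over BM IMs of the same strain (horizontal axis) for the genes of 8 lists (vertical axis), 1 point per gene and row of points per tumor site. Filled points passed an adjusted p of 0.05. All 10 JAK and other STAT genes are filled in primary tumors and 3 of them in LN4K1 lungs.

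Profiles over the 21 libraries were compared as the mean absolute difference of log2 CPM, each gene centred on its own mean, among 15342 genes. Nearest to Socs3, whose own mean deviation was 3.36, were Htra3 (0.69), the inflammatory cytokine gene Il1b (0.73), Saa3 (0.81), Creb5 (0.90) and the tissue factor gene F3 (0.98). Nearest to Socs1 (own deviation 1.73) were the MHC class II gene H2-Ab1 (0.29), the Fc receptor gene Fcgr4 (0.32) and Gbp2 (0.34), an interferon-induced GTPase. Nearest to Pim1 (1.64) were H2-Q5 (0.38), Ms4a8a (0.44) and H2-Eb1 (0.52). For Cish (1.94) they were Zfp36l1 (0.57), the early response gene Egr2 (0.60) and Irf2bpl (0.69), and for Stat3 (0.76) Emilin2 (0.11), Mvp (0.14) and Tbc1d14 (0.14). For Il6 (1.36) they were Bcl3 (0.59), Ahr (0.60) and Cd2 (0.62), and for Osm (0.63) Atf3 (0.27), Hlx (0.29) and Siglece (0.30). Il6ra (0.43) and Il6st (0.41) varied little, and their nearest genes were Epn1 (0.19) and Ehbp1l1 (0.16).

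By RPKM the order of the members changed between BM and TIMs. In FVB BM it ran Osm, Stat3, Pim1, Il6ra, Il6st, Socs3, Socs1, Il6, Cish and Socs2, in which the ranges of Socs3 and Socs1 and those of Cish and Socs2 overlapped. In DBA2 BM Pim1 stood beside Osm, at 157 ± 57.6 RPKM (SD, n = 3) with overlapping ranges. In primary tumor TIMs the order was Socs3, Osm, Stat3, Pim1, Socs1, Il6ra, Il6st, Il6, Cish and Socs2. Socs1, at 21.6 ± 3.25 RPKM (SD, n = 5), thus lay above both receptor chains without overlap. The range of Socs3 overlapped that of Osm, and the range of Il6 those of Il6st and Cish. In LN4K1 lung TIMs it was Socs3, Pim1, Osm, Stat3, Il6ra, Socs1, Il6st, Cish, Il6 and Socs2, and there Socs1, at 9.29 ± 0.811 RPKM (SD, n = 5), stayed below Il6ra without overlap. The range of Pim1 overlapped those of Socs3 and Osm there, and the range of Cish those of Il6st and Il6.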

How the data were processed

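The authors trimmed reads with BBDuk, aligned them to mm10 with BBMap and counted reads per gene with featureCounts 1.5.2 (Subread) and SAMtools 1.8, and deposited raw counts for 23420 gene symbols. The featureCounts settings are not given in the sources used here. Sample labels gave the groups. In R 4.3.3, edgeR 4.0.16 fitted every comparison on the libraries it compares, with TMM scaling, a minimum count of 10 (total 15), the robust quasi-likelihood test and Benjamini-Hochberg adjustment over all genes tested. The interaction used 4 groups. Standard errors are the log2 fold change divided by the square root of F, which is approximate. CPM values were TMM-scaled over the 21 libraries, log2 CPM used a prior count of 2, and RPKM divided CPM by the exon union of GENCODE vM21 in kilobases. A count of 0 was taken to allow 3 counts, which covers counting error only. The test was also checked on simulated data.

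The members and lists were chosen with earlier results of these data known. Named list genes were up to 3 per list with the highest or lowest median change among those passing in the same direction in all comparisons with BM, except Adam17, named after its values were seen, and 1 gene that is not reported here. Alternatives were DESeq2 1.42.0 size factors or tests, other count filters, a fit of all 5 groups, a replicate block and leaving out each library. Replicate numbers were not taken to pair the samples: the labels do not say whether libraries share a mouse, and deviations of same-numbered libraries correlated at between -0.1 and 0.0573.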

Additional observations from a re-analysis of the deposited data

Results flagged for a closer look

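In LN4K1 lung replicate 3, Cish (9.64 CPM, a gap to the nearest library of 0.819 of the group's range) and Il6 (23.1 CPM, a gap of 0.727) lay far from the other 4 libraries by Dixon's criterion, for which the limit with 5 samples is 0.71. These were 2 of 30 member and group combinations tested, and chance alone marks about 1 in 20. Cish was the lowest and Il6 the highest of the group, and the Il6 rise against DBA2 BM was called with and without that library.

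The change against BM differed between LN2E1 primary tumors and LN4K1 lungs, by the interaction test in edgeR, for Socs1 (log2 difference 1.43), Stat3 (1.12), Il6 (-2.40) and Il6st (1.14). The models differ in strain, cell line, route and tissue, which cannot be told apart.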

How the results depend on the processing

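Counts of members changed (adjusted p under 0.05) stayed within 1.5 times of those reported under the other settings tried, except in the fit of all 5 groups, which called 2 between lymph node and primary tumor TIMs, and with libraries left out. Leaving out each library gave 9 to 10 in primary tumors, 6 to 7 in lymph nodes, 6 to 8 in LN4K1 lungs, 4 to 4 between lymph node and primary tumor, 2 to 5 between the strains (2 without FVB BM replicate 1 or 2 or DBA2 BM replicate 2) and 2 to 4 for the interaction (2 without FVB BM replicate 1 or 2, DBA2 BM replicate 2 or primary tumor replicate 1, 2, 4 or 5). Counts of members meeting the DEG rule moved more. DESeq2, shrunken or not, gave 8 in primary tumors, 6 in LN4K1 lungs, 1 between lymph node and primary tumor and 1 between the strains. The fit of all 5 groups gave 6 in LN4K1 lungs and 1 in each of the last comparisons, and both other filters on low counts gave 2 in LN4K1 lungs. Without single libraries the DEG counts ran from 4 to 6 in primary tumors, 2 to 4 in lymph nodes (2 in every fit but that without lymph node replicate 1) and 1 to 4 in LN4K1 lungs (4 without replicate 3). The cause of these shifts was not tested.

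With the replicate number as a block, although nothing shows that the numbers pair the samples, members changed were 10, 6, 6, 4, 5 and 3 in the order above, and members meeting the DEG rule were 0 throughout. The block called Socs3 between the strains and lost Il6st in the interaction.

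Over member values, the settings other than leaving out a library kept direction and call in 388, gained a call in 10, lost it in 5 and turned the sign in 2. Those signs were of Osm in the interaction (-0.00 with only genes of 0 counts left out and -0.01 in the fit of all 5 groups). The fit of all 5 groups lost Socs2 and Il6ra in primary tumors and Socs3 and Il6st between the LN2E1 sites, and gained Socs2 and Stat3 in LN4K1 lungs and Socs3 between the strains, as did DESeq2 for the last 3. Leaving out a library turned the sign of 15 values, none of them called. These were Il6ra in lymph nodes (-0.02 to 0.30) and LN4K1 lungs (-0.13 to 0.10), Osm in lymph nodes (-0.23 to 0.00), Pim1 (-0.01 to 0.19) and Stat3 (-0.03 to 0.17) between the LN2E1 sites, and in the interaction Socs3 (-0.23 to 1.26), Cish (-0.04 to 1.0), Pim1 (-0.11 to 0.38) and Osm (-0.06 to 0.13).

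Over all genes, DEGs higher and lower numbered 1124 and 755 in primary tumors but 2739 and 1193 by unshrunken DESeq2, 532 and 226 in lymph nodes but 1533 and 780, 165 and 240 in LN4K1 lungs but 872 and 697, 0 and 4 between the LN2E1 sites but 44 and 330, and 36 and 16 between the strains but 443 and 341. In the fit of all 5 groups they were 1185 and 762 in lymph nodes, 474 and 323 in LN4K1 lungs, 4 and 23 between the sites and 92 and 48 between the strains. With only genes of 0 counts left out they were 1 and 11 between the sites and 75 and 36 between the strains, with 10 counts in every library 0 and 0 between the sites and 58 and 28 between the strains, and with the block 0. Genes lower in lymph node than in primary tumor TIMs fell from 749 to 288 with the block and were 1273 by DESeq2. In LN4K1 lungs they fell from 1892 and 1497 to 691 and 633 with the block, in primary tumors from 4855 and 4170 to 3360 and 2594, and between the strains from 1484 and 1235 to 868 and 727 in the fit of all 5 groups. Socs2 rested on 12 to 67 counts per library in FVB BM and 0 to 39 in DBA2 BM, Cish on 11 to 57 and 32 to 152, and Il6 on 15 to 47 in DBA2 BM.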
